A study of Arabidopsis thaliana with 18 samples.

Results

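The genes described here are 53 cytosolic ribosomal protein genes of Arabidopsis, chosen by locus as a list of small-subunit (RPS) and large-subunit (RPL and RPP) genes. They were 53 of the 33655 genes in the count table. All 53 were found in the table, and all passed the filter on low counts that left 18078 genes for testing. The list held 27 small-subunit genes for 12 proteins and 26 large-subunit genes for 13 proteins, and 21 of the 25 proteins were represented by several gene copies. The rule uses no measured value, although the list was drawn up with earlier results of these data known. RNA was taken from whole seedlings of wild-type Col-0, the hec1hec2 double mutant and pifQ, whose name stands for a quadruple mutant of PIF1, PIF3, PIF4 and PIF5. The labels give Col-0 as the background of both mutants and name no alleles. Seedlings were grown in white light on MS medium without sucrose at 22°C and then kept for 24 h of continuous white light at 22°C or at 28°C. The labels give 5 days of growth before this treatment, and the study's text gives another age. Each of the 6 groups held 3 libraries made by 3′ Tag-Seq, which counts reads near the ends of transcripts.

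A cytosolic ribosome is built from ribosomal RNA and a set of proteins that must be made in matching amounts, and its genes are among the most strongly expressed in growing tissue. In Arabidopsis each ribosomal protein is usually encoded by several unlinked gene copies, and losing a single copy often slows growth or gives narrow, pointed first leaves. Many of these genes carry telo-box and site II elements near the transcript start, which are known from plant ribosomal protein promoters. HEC1 and HEC2 are helix-loop-helix proteins that bind PIFs, and PIFs are transcription factors that promote elongation growth in warmth. The comparisons here ask how the ribosomal protein genes responded to warmth and whether the response differed in the mutants.

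Library totals ranged from 3631558 to 6285632 counts. The labels were checked against the genes the mutants are named for. HEC1 had 2691 to 3308 counts in the 6 libraries labelled hec1hec2 against 33 to 68 in the Col-0 libraries, so that HEC1 goes against the label, while HEC2 had 0 to 6 counts against 3 to 14. In pifQ, PIF3 had 1 to 6 counts against 56 to 83 in Col-0 and PIF5 had 3 to 12 against 170 to 553, whereas the median count was 79.5 against 56 for PIF1 and 256.5 against 178.5 for PIF4. The labels name no alleles, so it is not known whether the tags of HEC1, PIF1 or PIF4 lie within the disrupted part of the gene. PIF1 and PIF4, like HEC1, thus do not bear out the labels. The cause of the higher HEC1 counts in hec1hec2, and of the PIF1 and PIF4 counts in pifQ, was not tested. Throughout, hec1hec2 stands for the libraries labelled hec1hec2.

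The library pifQ 22°C replicate 2 stood apart from the other pifQ libraries at 22°C, by chromosome. This held over the counts of all genes. Chromosome 1 took 41.17% of them in it, against 29.69% in replicate 1 and 29.55% in replicate 3. Chromosome 5 took 10.06%, against 20.33% and 20.6%. Relative to the mean of replicates 1 and 3, the median of the ribosomal protein genes in it was 148% for the 14 genes on chromosome 1 and 122% for the 11 on chromosome 2. The median was 94.2% for the 12 genes on chromosome 3, 91.3% for the 5 on chromosome 4 and 46.8% for the 11 on chromosome 5. The counts over the 53 genes and the fold changes of named genes in pifQ are therefore given with and without it. The cause of this pattern was not tested.

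**Figure D1:**
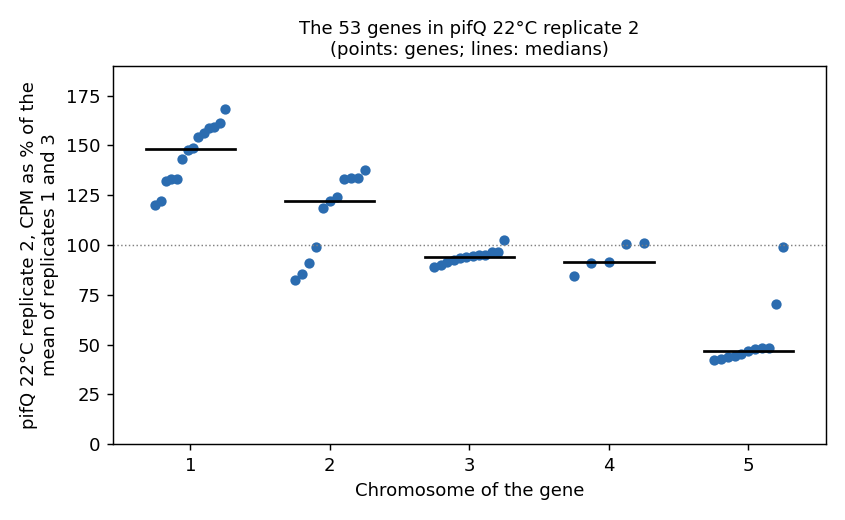
Each point is 1 of the 53 genes, placed by its chromosome (x axis) and by its CPM in pifQ 22°C replicate 2 as a percentage of the mean of replicates 1 and 3 (y axis), and lines are medians. The genes of chromosome 1 lie above 100% with a median of 148%, and most of those of chromosome 5 lie near their median of 46.8%.

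The 53 genes together took a smaller share of all counts at 28°C than at 22°C in each genotype. In Col-0 the share was 2.07%, 2.03% and 2.04% of counts at 22°C and 1.10%, 1.03% and 1.06% at 28°C. In hec1hec2 it was 2.07%, 2.26% and 2.15% at 22°C and 1.06%, 1.25% and 1.09% at 28°C. In pifQ it was 2.05%, 1.95% and 2.15% at 22°C and 1.27%, 1.22% and 1.196% at 28°C. The shares at the 2 temperatures did not overlap in any genotype. The mean share at 28°C was 51.9% of that at 22°C in Col-0, 52.4% in hec1hec2 and 59.96% in pifQ, or 58.6% without pifQ 22°C replicate 2. An exact two-sided permutation test gave p = 0.1 for each genotype, the smallest that 3 libraries against 3 can give. In whole seedlings, fewer cells of a kind and less RNA per cell cannot be told apart.

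**Figure D2:**
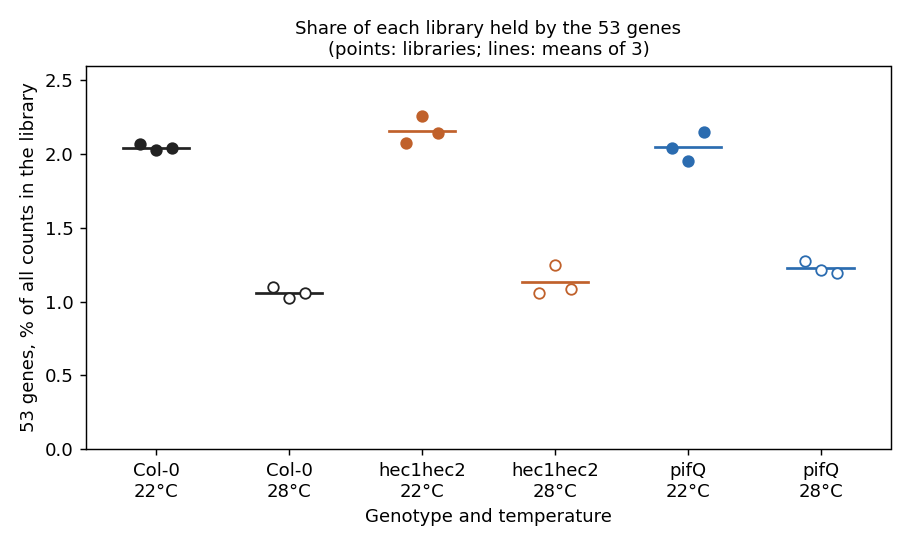
The share of all counts in a library that fell on the 53 genes (y axis, percent) is shown for each of the 18 libraries by genotype and temperature (x axis), with filled points at 22°C, open points at 28°C and lines for the means of 3. Every library at 28°C lies between 1.03% and 1.27%, below every library at 22°C, which lie between 1.95% and 2.26%.

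Tested gene by gene, nearly all of the 53 were lower at 28°C. Values in CPM are counts scaled to a common library size with edgeR's TMM factors. The quasi-likelihood test of edgeR was run on the counts, with p-values adjusted by the Benjamini-Hochberg method over all 18078 genes (FDR). By an FDR of at most 0.05 alone, 50 of the 53 were lower at 28°C in Col-0, where 12.8% of all tested genes were called lower. The count was 50 in hec1hec2, with 14.3% of all genes called lower, and 46 in pifQ, also with 14.3%. Those 46 genes were lower in all 3 genotypes. Among all tested genes, no more than the 12.8% called lower in Col-0 can be lower in all 3. Only AT5G39850, an RPS9 copy, was called higher, and it was higher in each genotype, where 13.2%, 14.9% and 13.1% of all genes were called higher in Col-0, hec1hec2 and pifQ.

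By the 2-fold rule, which also asks for a log2 fold change of at least 1 in size, 25 of the 53 were lower in Col-0 against 4.09% of all tested genes. The same rule called 32 in hec1hec2, against 4.12% of all genes, and 15 in pifQ, against 3.72%. None of the 53 was higher by this rule, against 3.86%, 4.81% and 4.10% of all genes. A set of 12 genes was 2-fold lower in all 3 genotypes. Among all tested genes, no more than the 3.72% called in pifQ can be so in all 3. The 12 included AT2G31610 (RPS3), AT3G04840 (RPS3a), AT4G31700 (RPS6), AT1G22780 (RPS18), AT1G14320 (RPL10), AT2G27530 (RPL10a), AT2G36620 (RPL24) and AT2G40010 (RPP0). Without pifQ 22°C replicate 2, 8 genes were 2-fold lower in pifQ (3.24% of all genes), 7 were so in all 3 genotypes, no longer AT2G31610, AT1G22780 and AT1G14320 among those named, and 50 were lower in pifQ by FDR alone (14.3%). The median log2 fold change of the 53 was -0.98 in Col-0, -1.09 in hec1hec2 and -0.76 in pifQ, beside 0.04, 0.05 and 0.00 over all tested genes. Without that library the pifQ median of the 53 was -0.77.

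The libraries at the 2 temperatures did not overlap for most of the genes. In Col-0, 52 of the 53 had all libraries at 28°C below all libraries at 22°C, a position held by 21.1% of all tested genes. In hec1hec2 this held for 51 of the 53, against 21.9% of all genes. In pifQ it held for 43, against 17.6%, and without replicate 2 at 22°C for 50, against 24.7%. AT5G39850 was above in each genotype, as were 23.6%, 25.4% and 18.3% of all genes.

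**Figure D3:**
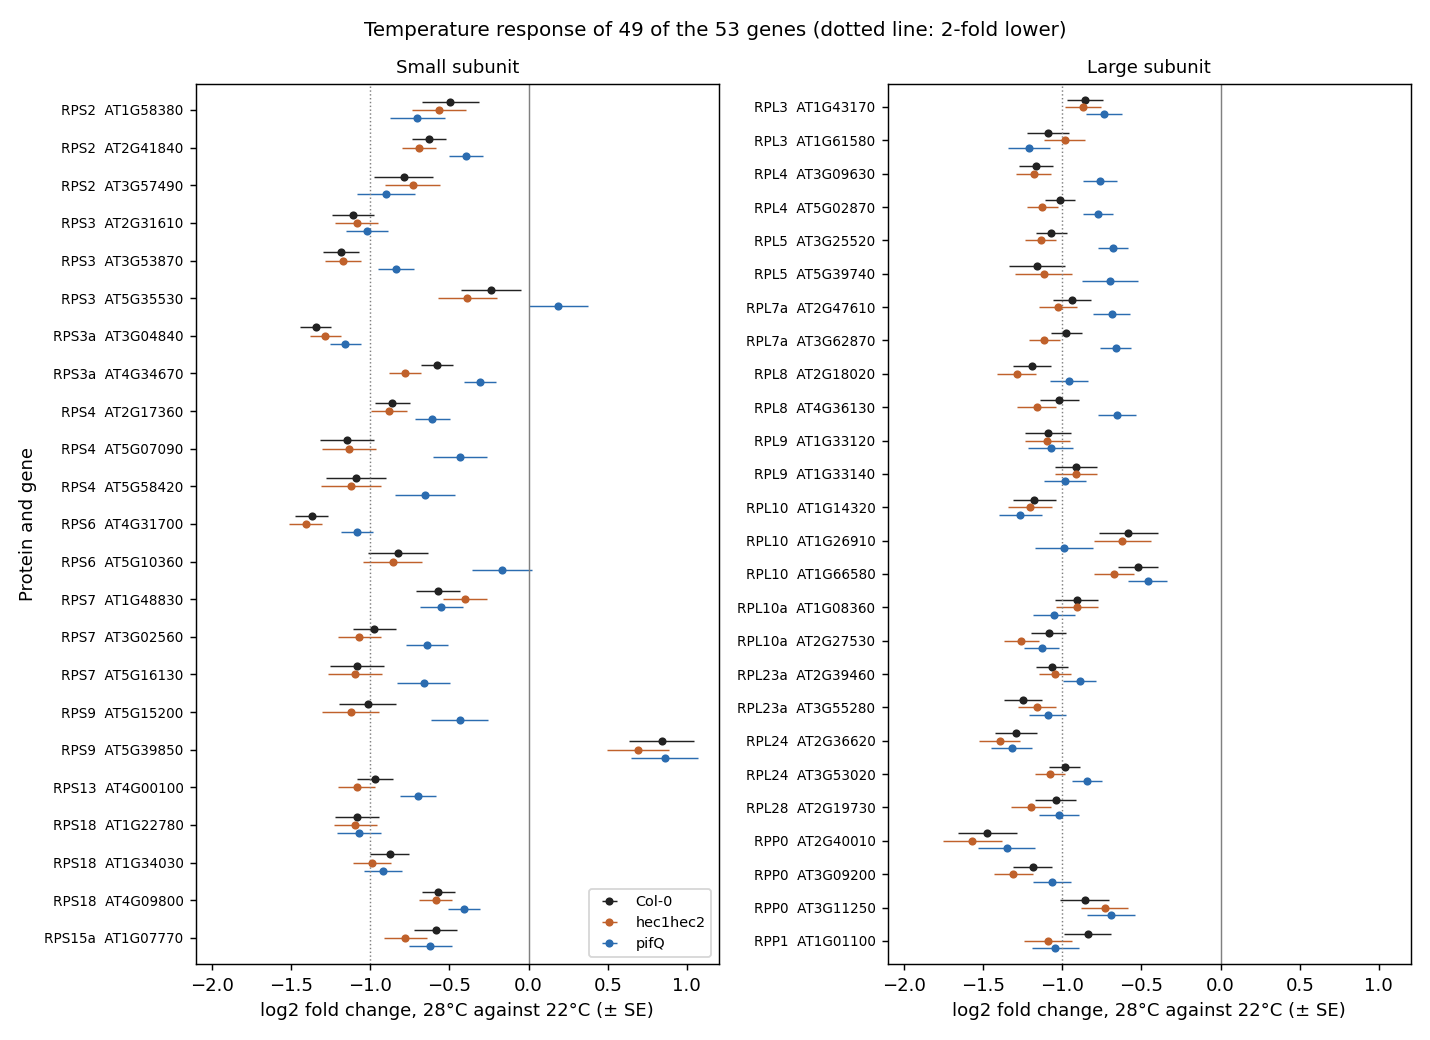
The log2 fold change at 28°C against 22°C (x axis, ± SE from the edgeR fit) is shown for 49 of the 53 genes (y axis, by protein and locus) in Col-0, hec1hec2 and pifQ, with the small subunit on the left and the large subunit on the right. AT5G39850 (RPS9) lies to the right of 0 in all 3 genotypes, AT5G35530 (RPS3) lies near 0, and the other genes shown lie to the left.

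The large-subunit genes were all called lower in each genotype, 26 of 26 by FDR alone, with medians of -1.05 in Col-0, -1.12 in hec1hec2 and -0.97 in pifQ on the log2 scale. Of the small-subunit genes 24, 24 and 20 of 27 were called lower, with medians of -0.90, -0.99 and -0.64. AT5G35530 (RPS3) and AT5G39850 (RPS9) were among the small-subunit genes outside the lower calls in each genotype. In pifQ, AT5G07090 (RPS4), AT5G10360 (RPS6) and AT5G15200 (RPS9) were not called either, and these lie on chromosome 5. With pifQ 22°C replicate 2 left out, 24 of the 27 small-subunit genes were called lower in pifQ, with a median of -0.71, and 26 of the 26 large-subunit genes, with a median of -0.83, so the gap between the subunits in pifQ was smaller without that library. The difference between the subunits was not tested.

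RPS3 sits where messenger RNA enters the small subunit, and its 3 copies differed in their response. AT3G53870 (chr3:19951424-19953018) was the copy with the highest level. In Col-0, AT3G53870 stood at 427, 371 and 384 CPM at 22°C and at 195, 154 and 172 CPM at 28°C. In hec1hec2, AT3G53870 stood at 449, 361 and 386 CPM at 22°C and at 178, 185 and 168 CPM at 28°C. In pifQ, AT3G53870 stood at 382, 343 and 350.0 CPM at 22°C and at 212, 187 and 202 CPM at 28°C. All libraries at 28°C were below all at 22°C in each genotype. Between temperatures, AT3G53870 had a log2 fold change of -1.18 ± 0.11 in Col-0, -1.17 ± 0.11 in hec1hec2 and -0.84 ± 0.11 in pifQ (-0.87 ± 0.11 without replicate 2 at 22°C), with FDRs of 2.91e-08, 1.91e-08 and 4.25e-06 (7.53e-08 without it).

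The copy AT2G31610 of RPS3 (chr2:13450241-13451982) fell in the same way. In Col-0, AT2G31610 stood at 268, 213 and 239 CPM at 22°C and at 126, 103 and 104 CPM at 28°C. In hec1hec2, AT2G31610 stood at 276, 240.3 and 235 CPM at 22°C and at 119.6, 125 and 109 CPM at 28°C. In pifQ, AT2G31610 stood at 236, 305 and 220.0 CPM at 22°C and at 135, 111 and 127 CPM at 28°C. The highest value at 22°C in pifQ was in replicate 2, and the groups did not overlap in any genotype. Its log2 fold change was -1.11 ± 0.13 in Col-0, -1.09 ± 0.13 in hec1hec2 and -1.02 ± 0.13 in pifQ (-0.87 ± 0.11 without replicate 2 at 22°C), with FDRs of 8.58e-07, 7.11e-07 and 2.60e-06 (2.85e-07 without it).

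The remaining RPS3 copy, AT5G35530 (chr5:13710026-13712288), was not called in any genotype. In Col-0, AT5G35530 stood at 194, 158 and 158 CPM at 22°C and at 152, 139.5 and 140.3 CPM at 28°C. In hec1hec2, AT5G35530 stood at 209, 178 and 177 CPM at 22°C and at 142, 156 and 134 CPM at 28°C. In pifQ, AT5G35530 stood at 191, 83.0 and 183 CPM at 22°C and at 196, 156 and 169.8 CPM at 28°C. In Col-0 and hec1hec2 the libraries at 28°C were still all below those at 22°C, by a narrow margin in Col-0, whereas in pifQ the groups overlapped and replicate 2 at 22°C was the lowest of the 18 libraries. At 28°C against 22°C, AT5G35530 had a log2 fold change of -0.24 ± 0.19 in Col-0, -0.39 ± 0.19 in hec1hec2 and 0.19 ± 0.19 in pifQ, with FDRs of 0.385, 0.127 and 0.489. Without pifQ 22°C replicate 2 its value in pifQ was -0.10 ± 0.11 (FDR = 0.534), which reverses the sign and is still not called, and its value of -0.39 in hec1hec2 was then called (FDR = 0.00257). AT5G35530 supplied a larger part of the RPS3 counts at 28°C than at 22°C. It made up 21.1% ± 0.83 (SD, n = 3) of the counts of the 3 copies at 22°C in Col-0 and 33.7% ± 1.53 at 28°C. In hec1hec2 its share was 22.5% ± 0.30 and 32.8% ± 0.56. In pifQ it was 24.0% in the mean of replicates 1 and 3 at 22°C, 11.4% in replicate 2, and 34.8% ± 1.09 at 28°C.

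RPS9, which lies beside RPS3 on the small subunit where messenger RNA enters, had the widest spread between copies. AT5G15200 (chr5:4934810-4936429) gave most of its counts. In Col-0, AT5G15200 stood at 1056, 973 and 989.8 CPM at 22°C and at 543, 470.4 and 479 CPM at 28°C. In hec1hec2, AT5G15200 stood at 1082, 1029.9 and 1030.0 CPM at 22°C and at 473, 514 and 454 CPM at 28°C. In pifQ, AT5G15200 stood at 1040.1, 444 and 988 CPM at 22°C and at 670.1, 575 and 585 CPM at 28°C. Apart from replicate 2 of pifQ at 22°C, which read 444 CPM, every library at 22°C was above every library at 28°C. On the log2 scale, the change of AT5G15200 was -1.02 ± 0.18 in Col-0, -1.12 ± 0.18 in hec1hec2 and -0.43 ± 0.18 in pifQ, with FDRs of 1.48e-04, 3.32e-05 and 0.0742. Without that replicate its value in pifQ was -0.73 ± 0.09 (FDR = 1.16e-07), which is called.

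AT5G39850 (chr5:15949910-15951475), the other RPS9 copy, was the only 1 of the 53 genes to rise. In Col-0, AT5G39850 stood at 14.1, 13.2 and 17.0 CPM at 22°C and at 28.7, 25.6 and 25.0 CPM at 28°C. In hec1hec2, AT5G39850 stood at 21.1, 18.1 and 17.7 CPM at 22°C and at 31.3, 26.1 and 34.9 CPM at 28°C. In pifQ, AT5G39850 stood at 15.4, 7.0 and 17.3 CPM at 22°C and at 24.4, 26.8 and 21.8 CPM at 28°C. All libraries at 28°C were above all at 22°C in each genotype, although the levels were low, with 27 to 164 counts per library. From 22°C to 28°C the log2 fold change of AT5G39850 was 0.84 ± 0.21 in Col-0, 0.69 ± 0.20 in hec1hec2 and 0.86 ± 0.21 in pifQ, with FDRs of 0.00377, 0.00864 and 0.00307. These are 179%, 162% and 181% of the level at 22°C. Without pifQ 22°C replicate 2, where it was lowest, the value in pifQ was 0.58 ± 0.17 (FDR = 0.00868). Leaving out hec1hec2 28°C replicate 3 lost its call in hec1hec2 (0.59, FDR = 0.0549). The share of AT5G39850 in the RPS9 counts was 1.45% ± 0.21 (SD, n = 3) at 22°C and 5.05% ± 0.10 at 28°C in Col-0. It was 1.77% ± 0.12 and 6.06% ± 1.17 in hec1hec2, and 1.58% ± 0.13 (1.59% without replicate 2) and 3.85% ± 0.52 in pifQ, and the shares at the 2 temperatures did not overlap. The summed counts of both RPS9 copies fell, by 0.96 on the log2 scale in Col-0 (FDR = 0.000265).

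**Figure D4:**
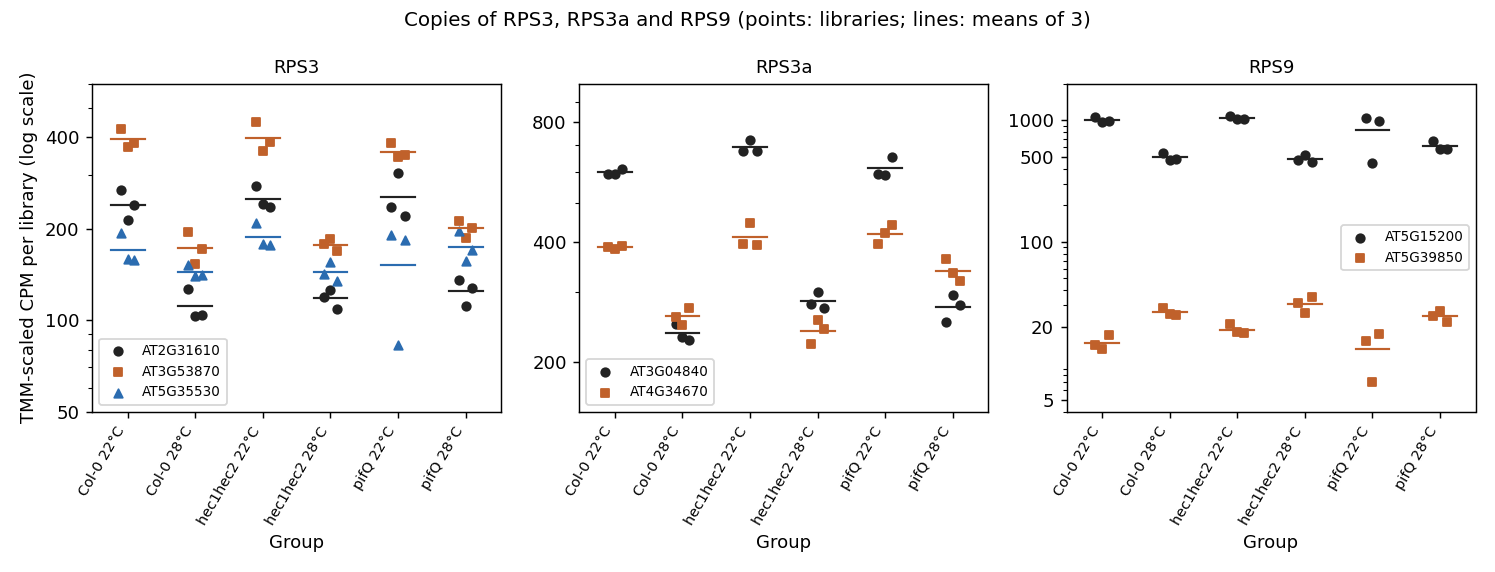
CPM per library (y axis, log scale) is shown for the copies of RPS3, RPS3a and RPS9 in the 6 groups (x axis), with points for libraries and lines for the means of 3. AT5G39850 of RPS9 is higher at 28°C in each genotype while AT5G15200 is lower in Col-0 and hec1hec2, and AT3G04840 of RPS3a, above AT4G34670 in every library at 22°C, is below it in every library of Col-0 and pifQ at 28°C.

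The promoters of the fallen and the exceptional copies of RPS3 and RPS9 are shown because these proteins had the widest spread between copies in Col-0. They run from 250 bases before to 30 bases after the transcript start in the RefSeq annotation of TAIR10.1. Capitals mark site II (TGGGCC, or GGCCCA on the other strand) and the telo-box (AAACCCTA, or TAGGGTTT on the other strand).
AT3G53870, chr3:19951174-19951453, + strand: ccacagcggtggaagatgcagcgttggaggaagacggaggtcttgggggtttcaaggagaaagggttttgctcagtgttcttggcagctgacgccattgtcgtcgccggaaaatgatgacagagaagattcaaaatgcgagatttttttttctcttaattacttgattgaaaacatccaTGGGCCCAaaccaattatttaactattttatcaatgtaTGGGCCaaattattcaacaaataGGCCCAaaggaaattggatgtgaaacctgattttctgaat
AT5G35530, chr5:13712259-13712538, - strand: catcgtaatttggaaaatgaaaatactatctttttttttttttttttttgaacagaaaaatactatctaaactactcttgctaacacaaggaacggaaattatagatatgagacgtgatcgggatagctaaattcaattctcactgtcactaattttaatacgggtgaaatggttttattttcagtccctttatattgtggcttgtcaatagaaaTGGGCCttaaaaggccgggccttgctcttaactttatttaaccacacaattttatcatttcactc
AT5G15200, chr5:4936400-4936679, - strand: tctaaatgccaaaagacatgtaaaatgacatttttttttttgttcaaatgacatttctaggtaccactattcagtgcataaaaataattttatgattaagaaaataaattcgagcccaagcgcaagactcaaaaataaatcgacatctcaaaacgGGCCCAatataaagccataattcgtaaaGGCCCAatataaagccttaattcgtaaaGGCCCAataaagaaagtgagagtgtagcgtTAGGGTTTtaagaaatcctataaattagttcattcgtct
AT5G39850, chr5:15949660-15949939, + strand: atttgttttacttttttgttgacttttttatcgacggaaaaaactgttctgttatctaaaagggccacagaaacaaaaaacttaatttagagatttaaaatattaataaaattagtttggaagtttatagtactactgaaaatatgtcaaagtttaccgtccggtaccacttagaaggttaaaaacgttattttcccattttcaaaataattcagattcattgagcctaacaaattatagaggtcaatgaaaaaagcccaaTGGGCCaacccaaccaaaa
AT3G53870 had 4 site II matches, 2 of which share bases, and AT5G35530 had 1. The RPS3 copy AT2G31610, which fell but is not shown, also had 1. Whether the number of matches bears on the response was not tested. AT5G15200 had 3 site II matches and a telo-box starting 9 bases before the transcript start, and AT5G39850 had 1 site II match, starting 12 bases after it. A match is only a match of letters, and no match says only that these letters are not in this window.

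Over all 53 promoters, taken to 50 bases after the start, 26 (49.1%) held a telo-box, against 6.22% of the 27443 protein-coding promoters of the same length. Site II was present in 38 (71.7%), against 15.5%, and either element in 47 (88.7%), against 5502 of the 27443. Both elements were present in 17 (32.1%), against 1.63%. Telo-boxes lay from 36 bases before to 36 bases after the start, with a median of 6 after it, and site II matches lay from 225 before to 44 after, with a median of 41 before. The response of genes with and without each element was compared by medians only. The median log2 fold change in Col-0 was -0.97 with a telo-box and -1.02 without, and -1.01 with site II and -0.97 without.

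**Figure D5:**
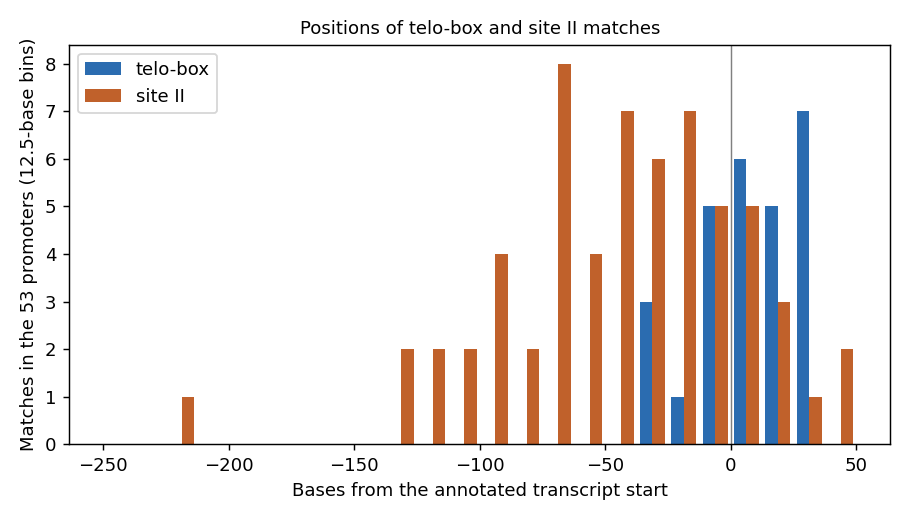
The number of telo-box and site II matches in the 53 promoters (y axis, in equal bins) is shown by the distance of their first base from the annotated transcript start (x axis). The 27 telo-box matches gather around the start, with a median of 6 bases after it, and the 61 site II matches spread further upstream, with a median of 41 bases before it.

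RPS3a lies on the small subunit where messenger RNA leaves it. Its copy AT3G04840 was among the genes with the largest falls. In Col-0, AT3G04840 stood at 594, 594 and 610.5 CPM at 22°C and at 249, 232 and 227 CPM at 28°C. In hec1hec2, AT3G04840 stood at 676, 721 and 679 CPM at 22°C and at 279, 299 and 273 CPM at 28°C. In pifQ, AT3G04840 stood at 594, 590.5 and 654 CPM at 22°C and at 253, 294 and 278 CPM at 28°C. No library of AT3G04840 at 28°C was above 299 CPM and none at 22°C was below 590.5 CPM, over all genotypes. The fitted log2 fold change of AT3G04840 was -1.34 ± 0.10 in Col-0, -1.28 ± 0.10 in hec1hec2 and -1.16 ± 0.10 in pifQ (-1.18 ± 0.09 without replicate 2 at 22°C), with FDRs of 4.48e-10, 3.93e-10 and 4.28e-09 (4.23e-12 without it).

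The other RPS3a copy, AT4G34670, had a smaller fold change. In Col-0, AT4G34670 stood at 389.6, 385 and 392 CPM at 22°C and at 260.1, 248 and 273 CPM at 28°C. In hec1hec2, AT4G34670 stood at 395, 447 and 392 CPM at 22°C and at 222, 254 and 243 CPM at 28°C. In pifQ, AT4G34670 stood at 395, 422 and 442 CPM at 22°C and at 363, 334 and 319 CPM at 28°C. The groups did not overlap, although the gap was narrow in pifQ. The log2 fold change of AT4G34670 was -0.58 ± 0.10 in Col-0, -0.78 ± 0.10 in hec1hec2 and -0.31 ± 0.10 in pifQ (-0.30 ± 0.09 without replicate 2 at 22°C), with FDRs of 1.19e-04, 1.66e-06 and 0.0237 (0.0143 without it). Its call in pifQ was lost without pifQ 22°C replicate 3 (FDR = 0.0739), without pifQ 28°C replicate 2 (0.0645) or 3 (0.103). The leading copy changed in Col-0 and pifQ. AT3G04840 made up 60.6% ± 0.26 (SD, n = 3) of the RPS3a counts at 22°C and 47.6% ± 1.86 at 28°C in Col-0, 62.8% ± 0.87 and 54.3% ± 1.40 in hec1hec2, and 59.4% ± 0.93 (59.9% without replicate 2) and 44.8% ± 3.26 in pifQ.

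RPS6 is the ribosomal protein that is phosphorylated in response to TOR signalling, and loss of either of its copies slows growth. The copy RPS6A (AT4G31700) fell strongly. In Col-0, AT4G31700 stood at 585, 619 and 609.8 CPM at 22°C and at 234, 221 and 245 CPM at 28°C. In hec1hec2, AT4G31700 stood at 648, 683 and 699 CPM at 22°C and at 232, 284 and 248 CPM at 28°C. In pifQ, AT4G31700 stood at 568, 548 and 634 CPM at 22°C and at 291, 277 and 257 CPM at 28°C. No library of AT4G31700 at 28°C was above 291 CPM and none at 22°C was below 548 CPM, over all genotypes. Between temperatures, RPS6A had a log2 fold change of -1.37 ± 0.10 in Col-0, -1.41 ± 0.10 in hec1hec2 and -1.08 ± 0.10 in pifQ (-1.13 ± 0.09 without replicate 2 at 22°C), with FDRs of 7.02e-10, 2.28e-10 and 2.67e-08 (3.70e-11 without it).

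RPS6B (AT5G10360) fell in Col-0 and hec1hec2 and was not called in pifQ. In Col-0, AT5G10360 stood at 342, 351 and 360.1 CPM at 22°C and at 211, 188 and 196 CPM at 28°C. In hec1hec2, AT5G10360 stood at 375, 358 and 363 CPM at 22°C and at 196, 218 and 189 CPM at 28°C. In pifQ, AT5G10360 stood at 345, 147 and 353 CPM at 22°C and at 284, 233 and 234 CPM at 28°C. The pifQ groups overlapped through replicate 2 at 22°C, the lowest of all 18 libraries. At 28°C against 22°C, RPS6B had a log2 fold change of -0.82 ± 0.19 in Col-0, -0.86 ± 0.19 in hec1hec2 and -0.17 ± 0.19 in pifQ, with FDRs of 0.00204, 0.00107 and 0.54. Without that library its value in pifQ was -0.48 ± 0.10 (FDR = 2.76e-04), which is called.

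Among the other small-subunit genes, AT2G17360 was the RPS4 copy called in the comparison of pifQ with Col-0. In Col-0, AT2G17360 stood at 444, 451 and 445 CPM at 22°C and at 241, 245 and 252 CPM at 28°C. In hec1hec2, AT2G17360 stood at 461, 477 and 423 CPM at 22°C and at 221, 266 and 253 CPM at 28°C. In pifQ, AT2G17360 stood at 466, 589 and 482 CPM at 22°C and at 353, 298 and 358 CPM at 28°C. The groups at 22°C and 28°C did not overlap in any genotype, and the pifQ libraries at 28°C, at 298 CPM and more, were above all other libraries at 28°C. The fitted log2 fold change of AT2G17360 was -0.86 ± 0.11 in Col-0, -0.88 ± 0.11 in hec1hec2 and -0.61 ± 0.11 in pifQ (-0.50 ± 0.10 without replicate 2 at 22°C), with FDRs of 2.36e-06, 1.15e-06 and 1.86e-04 (1.36e-04 without it).

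RPS13A (AT4G00100) and RPS18A (AT1G22780) are known as the POINTED FIRST LEAF genes, whose mutants have pointed first leaves. In Col-0, AT4G00100 stood at 533, 434 and 451 CPM at 22°C and at 279, 216 and 228 CPM at 28°C. In hec1hec2, AT4G00100 stood at 522, 508 and 483 CPM at 22°C and at 247, 241 and 224 CPM at 28°C. In pifQ, AT4G00100 stood at 495, 434 and 458 CPM at 22°C and at 312, 270.4 and 272 CPM at 28°C. No RPS13A library at 28°C reached any at 22°C, and its log2 fold change was -0.97 ± 0.12 in Col-0, -1.09 ± 0.12 in hec1hec2 and -0.70 ± 0.11 in pifQ (-0.74 ± 0.11 without replicate 2 at 22°C), with FDRs of 6.09e-07, 6.82e-08 and 5.27e-05 (1.39e-06 without it). In Col-0, AT1G22780 stood at 289, 254 and 224 CPM at 22°C and at 132, 119 and 110.2 CPM at 28°C. In hec1hec2, AT1G22780 stood at 294, 258 and 274 CPM at 22°C and at 120.5, 147 and 119 CPM at 28°C. In pifQ, AT1G22780 stood at 267, 392 and 281 CPM at 22°C and at 156, 146 and 144 CPM at 28°C. The 392 CPM of RPS18A in pifQ 22°C replicate 2 was the highest of its 18 libraries, and the temperatures did not overlap. Between temperatures, RPS18A had a log2 fold change of -1.09 ± 0.14 in Col-0, -1.09 ± 0.14 in hec1hec2 and -1.07 ± 0.14 in pifQ (-0.88 ± 0.11 without replicate 2 at 22°C), with FDRs of 1.86e-06, 1.07e-06 and 1.95e-06 (1.29e-07 without it).

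Further small-subunit genes, not given by library, were the copies of RPS2, RPS7 and RPS15a and further copies of RPS4 and RPS18. All of them were called lower by FDR alone in Col-0 and hec1hec2. In Col-0 their log2 fold changes ran from -0.49 ± 0.18 for AT1G58380 (RPS2) to -1.15 ± 0.17 for AT5G07090 (RPS4). In pifQ, AT5G07090 was at -0.43 ± 0.17 and was not called (FDR = 0.0627), and without pifQ 22°C replicate 2 it was at -0.71 ± 0.10 (FDR = 6.03e-07).

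In the large subunit, RPL4 lines the tunnel through which the new protein leaves. In Col-0, AT3G09630 stood at 375, 412 and 398 CPM at 22°C and at 189, 166 and 173 CPM at 28°C. In hec1hec2, AT3G09630 stood at 422, 431 and 414 CPM at 22°C and at 172, 213 and 174 CPM at 28°C. In pifQ, AT3G09630 stood at 393, 348 and 389 CPM at 22°C and at 243, 207 and 217 CPM at 28°C. No library of AT3G09630 at 28°C reached its libraries at 22°C, and its log2 fold change was -1.17 ± 0.11 in Col-0, -1.18 ± 0.11 in hec1hec2 and -0.76 ± 0.11 in pifQ (-0.82 ± 0.10 without replicate 2 at 22°C), with FDRs of 1.93e-08, 8.43e-09 and 8.67e-06 (7.14e-08 without it). In Col-0, AT5G02870 stood at 535, 577 and 574 CPM at 22°C and at 278, 284 and 274 CPM at 28°C. In hec1hec2, AT5G02870 stood at 561, 658 and 611.7 CPM at 22°C and at 277, 290.2 and 272 CPM at 28°C. In pifQ, AT5G02870 stood at 544, 552 and 573 CPM at 22°C and at 317, 329 and 329 CPM at 28°C. AT5G02870 was likewise separated by temperature in each genotype. At 28°C against 22°C, AT5G02870 had a log2 fold change of -1.01 ± 0.10 in Col-0, -1.12 ± 0.10 in hec1hec2 and -0.78 ± 0.09 in pifQ (-0.78 ± 0.09 without replicate 2 at 22°C), with FDRs of 1.93e-08, 2.26e-09 and 9.30e-07 (1.54e-08 without it).

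RPL5 binds a ribosomal RNA of the large subunit, and mutants of its copies RPL5A and RPL5B are known for abnormal leaves. In Col-0, AT3G25520 stood at 488, 513 and 512 CPM at 22°C and at 239, 238 and 244 CPM at 28°C. In hec1hec2, AT3G25520 stood at 534, 578 and 558 CPM at 22°C and at 230.2, 279 and 252 CPM at 28°C. In pifQ, AT3G25520 stood at 476, 464 and 484 CPM at 22°C and at 309, 301 and 280.3 CPM at 28°C. RPL5A (AT3G25520) thus was separated by temperature in each genotype, with a log2 fold change of -1.07 ± 0.10 in Col-0, -1.14 ± 0.10 in hec1hec2 and -0.68 ± 0.10 in pifQ (-0.696 ± 0.09 without replicate 2 at 22°C), with FDRs of 1.36e-08, 3.14e-09 and 9.33e-06 (2.52e-07 without it). In Col-0, AT5G39740 stood at 444, 462 and 487 CPM at 22°C and at 200.4, 206 and 217 CPM at 28°C. In hec1hec2, AT5G39740 stood at 509, 537 and 518 CPM at 22°C and at 206, 271 and 244 CPM at 28°C. In pifQ, AT5G39740 stood at 459, 234 and 542 CPM at 22°C and at 238, 261 and 262 CPM at 28°C. RPL5B (AT5G39740) lies on chromosome 5, and its 234 CPM in pifQ 22°C replicate 2 fell below the pifQ libraries at 28°C. On the log2 scale, the change of RPL5B was -1.16 ± 0.18 in Col-0, -1.12 ± 0.18 in hec1hec2 and -0.70 ± 0.18 in pifQ, with FDRs of 2.47e-05, 2.73e-05 and 0.00426. Without that library its value in pifQ was -0.98 ± 0.10 (FDR = 2.64e-09).

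PGY2 and PGY1, genes of RPL9 and RPL10a, are known from mutants that alter leaf shape. In Col-0, AT1G33140 stood at 519.6, 516 and 537 CPM at 22°C and at 269, 278 and 287 CPM at 28°C. In hec1hec2, AT1G33140 stood at 572, 583 and 633 CPM at 22°C and at 301, 336 and 311 CPM at 28°C. In pifQ, AT1G33140 stood at 497, 841 and 559 CPM at 22°C and at 323, 310.4 and 325 CPM at 28°C. PGY2 (AT1G33140) had its highest value in pifQ 22°C replicate 2, and its log2 fold change was -0.91 ± 0.13 in Col-0, -0.92 ± 0.13 in hec1hec2 and -0.98 ± 0.13 in pifQ (-0.72 ± 0.09 without replicate 2 at 22°C), with FDRs of 1.26e-05, 8.35e-06 and 4.35e-06 (8.36e-08 without it). In Col-0, AT2G27530 stood at 471, 399 and 390.4 CPM at 22°C and at 211, 191 and 192 CPM at 28°C. In hec1hec2, AT2G27530 stood at 511, 492 and 471 CPM at 22°C and at 209, 215 and 191 CPM at 28°C. In pifQ, AT2G27530 stood at 449.9, 556 and 460.4 CPM at 22°C and at 229, 223 and 218 CPM at 28°C. PGY1 (AT2G27530) was separated by temperature in each genotype. From 22°C to 28°C the log2 fold change of PGY1 was -1.09 ± 0.11 in Col-0, -1.26 ± 0.11 in hec1hec2 and -1.13 ± 0.11 in pifQ (-1.03 ± 0.09 without replicate 2 at 22°C), with FDRs of 5.59e-08, 3.63e-09 and 3.37e-08 (2.96e-10 without it).

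SAC52 (AT1G14320), the main RPL10 gene, is known from a mutant that restores stem growth to a thermospermine-deficient dwarf. In Col-0, AT1G14320 stood at 741, 727 and 719 CPM at 22°C and at 338, 316 and 314 CPM at 28°C. In hec1hec2, AT1G14320 stood at 838, 835 and 855 CPM at 22°C and at 349.8, 408 and 341 CPM at 28°C. In pifQ, AT1G14320 stood at 718, 1196 and 767 CPM at 22°C and at 378, 391 and 346 CPM at 28°C. No library of AT1G14320 at 28°C was above 408 CPM and none at 22°C was below 718 CPM, over all genotypes. The fitted log2 fold change of SAC52 was -1.18 ± 0.14 in Col-0, -1.20 ± 0.14 in hec1hec2 and -1.26 ± 0.14 in pifQ, with FDRs of 4.66e-07, 2.11e-07 and 1.63e-07. Without pifQ 22°C replicate 2, where it read 1196 CPM, its value in pifQ was -0.998 ± 0.09 (FDR = 1.83e-10) and it no longer met the 2-fold rule. Its copy AT1G66580 (SAG24, known as a senescence-associated gene) had a log2 fold change of -0.52 ± 0.13 in Col-0, -0.68 ± 0.13 in hec1hec2 and -0.46 ± 0.13 in pifQ (-0.31 ± 0.11 without replicate 2 at 22°C), with FDRs of 0.00316, 2.02e-04 and 0.00751 (0.0262 without it). The share of SAG24 in the RPL10 counts was 26.4% ± 0.47 (SD, n = 3) at 22°C and 35.6% ± 1.54 at 28°C in Col-0, 24.5% ± 0.99 and 31.5% ± 1.73 in hec1hec2, and 24.6% ± 2.19 (25.8% without replicate 2) and 35.6% ± 3.15 in pifQ.

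RPL23a lies at the exit of the tunnel, and its copy RPL23AB (AT3G55280) was among the 6 genes with the largest fold changes in Col-0. In Col-0, AT3G55280 stood at 179, 199 and 196 CPM at 22°C and at 84.7, 78.3 and 79.0 CPM at 28°C. In hec1hec2, AT3G55280 stood at 214, 264 and 216 CPM at 22°C and at 90.1, 116 and 104 CPM at 28°C. In pifQ, AT3G55280 stood at 205, 184 and 196 CPM at 22°C and at 90.9, 98.6 and 84.6 CPM at 28°C. No library of AT3G55280 at 28°C was above 116 CPM and none at 22°C was below 179 CPM, over all genotypes. The log2 fold change of RPL23AB was -1.25 ± 0.12 in Col-0, -1.16 ± 0.12 in hec1hec2 and -1.09 ± 0.12 in pifQ (-1.13 ± 0.11 without replicate 2 at 22°C), with FDRs of 2.91e-08, 4.17e-08 and 1.87e-07 (9.79e-10 without it).

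RPL24 has the copies RPL24A (AT2G36620) and STV1 (AT3G53020), the latter known for its part in gynoecium patterning and in translation after short upstream reading frames. In Col-0, AT2G36620 stood at 267, 276 and 303 CPM at 22°C and at 114, 114 and 118 CPM at 28°C. In hec1hec2, AT2G36620 stood at 293, 334 and 334 CPM at 22°C and at 116, 131 and 119 CPM at 28°C. In pifQ, AT2G36620 stood at 265, 375 and 279 CPM at 22°C and at 112, 142 and 114 CPM at 28°C. RPL24A was separated by temperature in each genotype, with a log2 fold change of -1.29 ± 0.13 in Col-0, -1.40 ± 0.13 in hec1hec2 and -1.32 ± 0.13 in pifQ (-1.15 ± 0.10 without replicate 2 at 22°C), with FDRs of 4.98e-08, 8.60e-09 and 3.72e-08 (2.14e-10 without it). In Col-0, AT3G53020 stood at 454, 451 and 457 CPM at 22°C and at 231, 217 and 240.0 CPM at 28°C. In hec1hec2, AT3G53020 stood at 488, 513 and 481 CPM at 22°C and at 223, 255 and 224 CPM at 28°C. In pifQ, AT3G53020 stood at 484, 461 and 503 CPM at 22°C and at 277, 263 and 267 CPM at 28°C. STV1 was separated as well. Between temperatures, STV1 had a log2 fold change of -0.98 ± 0.10 in Col-0, -1.08 ± 0.10 in hec1hec2 and -0.84 ± 0.10 in pifQ (-0.88 ± 0.09 without replicate 2 at 22°C), with FDRs of 3.62e-08, 5.67e-09 and 3.72e-07 (1.83e-09 without it). The share of STV1 in the RPL24 counts was 61.7% ± 1.43 (SD, n = 3) at 22°C and 66.5% ± 0.84 at 28°C in Col-0, 60.7% ± 1.74 and 65.8% ± 0.36 in hec1hec2, and 61.4% ± 5.38 (64.5% without replicate 2) and 68.8% ± 3.37 in pifQ.

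RPP0 forms the base of the stalk to which elongation factors bind. Its low-level copy AT2G40010 had the largest fall of the 53 genes in Col-0. In Col-0, AT2G40010 stood at 21.8, 20.2 and 26.7 CPM at 22°C and at 7.18, 7.56 and 9.85 CPM at 28°C. In hec1hec2, AT2G40010 stood at 23.3, 20.8 and 25.2 CPM at 22°C and at 8.72, 6.51 and 8.09 CPM at 28°C. In pifQ, AT2G40010 stood at 22.9, 20.5 and 26.7 CPM at 22°C and at 7.93, 10.2 and 9.33 CPM at 28°C. No library of AT2G40010 at 28°C was above 10.2 CPM and none at 22°C was below 20.2 CPM, over all genotypes. At 28°C against 22°C, AT2G40010 had a log2 fold change of -1.47 ± 0.19 in Col-0, -1.57 ± 0.19 in hec1hec2 and -1.35 ± 0.18 in pifQ (-1.43 ± 0.18 without replicate 2 at 22°C), with FDRs of 1.70e-06, 3.71e-07 and 3.70e-06 (2.52e-07 without it). These are 36.0%, 33.7% and 39.2% of the level at 22°C. The main RPP0 copy, AT3G09200, changed by -1.19 ± 0.12 in Col-0, -1.31 ± 0.12 in hec1hec2 and -1.07 ± 0.12 in pifQ (-1.09 ± 0.11 without replicate 2 at 22°C), with FDRs of 6.25e-08, 8.43e-09 and 3.05e-07 (2.37e-09 without it), on the log2 scale.

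The remaining large-subunit genes, the copies of RPL3, RPL7a and RPL8, RPL28, the stalk protein RPP1 and further copies of RPL9, RPL10, RPL10a, RPL23a and RPP0, were all called lower in each genotype. Their log2 fold changes in Col-0 ran from -0.52 ± 0.13 for AT1G66580 (RPL10) to -1.19 ± 0.12 for AT2G18020 (RPL8). RPL8 and RPL3 lie near the centre where peptide bonds are made.

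The copies of each protein were also summed. The change of a sum lies between those of its copies, so the sums cannot range wider than the single genes. All 25 sums were lower by FDR alone in Col-0 (12.7% of all rows in the table with summed copies) and in hec1hec2 (14.3%). The log2 fold changes of the sums ran from -1.17 for RPP0 to -0.59 for RPS15a in Col-0. In pifQ 23 sums were lower (14.2%), and RPS9, carried by chromosome 5 genes, was among those not called, at -0.40 ± 0.18 (FDR = 0.0969). Without pifQ 22°C replicate 2 all 25 sums were lower in pifQ by FDR alone. The 2-fold rule called 10 sums in Col-0 (4.02% of rows), 17 in hec1hec2 (4.05%) and 7 in pifQ (3.69%), and 1 in pifQ without that library. Shares of rows called with copies summed are not given without that library. Among single genes, that fit called 14.3% lower in pifQ by FDR alone and 3.24% by the 2-fold rule.

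Among the proteins with several copies, some copies supplied a larger part of their protein's counts at 28°C in each genotype, with no overlap between the libraries at the 2 temperatures. These were AT5G35530 (RPS3), AT4G34670 (RPS3a), AT5G10360 (RPS6), AT5G39850 (RPS9), AT4G09800 (RPS18), AT1G66580 (RPL10), AT3G53020 (RPL24) and AT3G11250 (RPP0). Leaving out replicate 2 of pifQ at 22°C cannot undo such a separation, so it gives no check of it. The shares of a protein's copies add up to 100%, so that in a pair a rise of one is the fall of the other. With 3 libraries a group an exact two-sided permutation test of a share cannot give a p below 0.1. For RPL4 and RPL7a the log2 fold changes of the copies lay at most 0.15 apart in each genotype, and also in pifQ without that library. For RPL5 they lay at most 0.09 apart, but 0.28 apart in pifQ without it.

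The copies of a protein encode nearly the same amino acids, with 4 of 35 pairs identical, a lowest identity of 77.0% and a median of 92.7%. Their transcript ends differ. In the last 300 annotated bases, a pair shared at most 29 identical bases in a row, the pair being AT1G34030 and AT4G09800 of RPS18. How the authors' counting divided reads between copies was not tested.

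The response was compared between genotypes in the same model. For hec1hec2 minus Col-0, 0 of the 53 genes differed at an FDR of 0.05, where 0.0% of all tested genes were called lower and 0.0166% higher. An unadjusted p under 0.05 was reached by 0 of the 53, and DESeq2 called 0. The median difference of the 53 was -0.04 on the log2 scale, and 0.04 when library totals replaced TMM. For pifQ minus Col-0, edgeR also called 0 of the 53 (0.0608% of all genes called lower and 0.0% higher), with an unadjusted p under 0.05 in 9 (17.0%, against 7.71% of all genes), and DESeq2 called 0. The median difference was 0.17, and 40 of the 53 were above 0, where 8836 of the 18078 tested genes were. All 53 were read from the same libraries, so counts above 0, here and below, are not counts of independent results. Without pifQ 22°C replicate 2 the count was still 0 (0.141% lower and 0.0163% higher). An unadjusted p under 0.05 was then reached by 12 of the 53 (22.6%), against 7.26% of all genes. The median of the 53 was 0.18, beside -0.003 over all genes, and 49 of the 53 were above 0. Both differences share the Col-0 libraries.

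At 22°C no gene of the 53 was called between genotypes by edgeR or DESeq2. For hec1hec2 against Col-0, 0.874% of all genes were lower and 0.83% higher. There 6 of the 53 (11.3%) had an unadjusted p under 0.05, against 10.2% of all genes. All 53 were above 0, with a median of 0.12, where 9130 of the 18078 tested genes were above 0. With library totals in place of TMM, 46 of the 53 were above 0 there. For pifQ against Col-0, where 0.0443% were lower and 0.0111% higher, 8 (15.1%) had an unadjusted p under 0.05, against 11.3% of all genes, and the median was 0.03. With replicate 2 of pifQ at 22°C left out, no gene of the 53 was called there, and the median was 0.02. Of all 18385 genes tested in that fit, 8 were called lower and 4 higher. An unadjusted p under 0.05 was then reached by 1 of the 53 (1.89%), against 7.49% of all genes.

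At 28°C 1 of the 53 genes was called between pifQ and Col-0. By FDR alone it was higher and 0 were lower, where 0.26% of all genes were higher and 1.21% lower, and 0 of the 25 protein sums were called. An unadjusted p under 0.05 was reached by 20 (37.7%), against 11.2% of all genes. The gene was AT2G17360 (RPS4), at 0.45 ± 0.11 on the log2 scale (FDR = 0.0365). DESeq2 called 5 of the 53, and the share of all genes it called is not given here. With 1 library left out, the count fell to 0 when that was any Col-0 library, replicate 3 of hec1hec2 at either temperature, or replicate 1 or 3 of pifQ at 28°C. The median of the 53 was 0.22, and 49 of 53 were above 0, where 9094 of the 18078 tested genes were. The fit without pifQ 22°C replicate 2 called 12 of the 53 higher (1.40% of all genes), with a median of 0.22. That library lies outside this contrast but enters the shared estimate of spread. In this fit 33 of the 53 (62.3%) had an unadjusted p under 0.05, against 15.8% of all genes. The 12 included AT2G17360 at 0.45 ± 0.09 (FDR = 0.00132), AT5G07090 at 0.43 ± 0.09 (FDR = 0.00249) and AT4G34670 at 0.38 ± 0.09 (FDR = 0.00564). The share of all counts on the 53 genes was 1.196% to 1.27% in pifQ and 1.03% to 1.10% in Col-0 at 28°C, which did not overlap (exact two-sided permutation test, p = 0.1). For hec1hec2 against Col-0 at 28°C, edgeR and DESeq2 called 0 of the 53 (0.47% of all genes lower, 0.968% higher), with an unadjusted p under 0.05 in 4 (7.55%, against 11.3% of all genes) and a median of 0.08. Without pifQ 22°C replicate 2, edgeR called 2 higher there (2.31% of all genes).

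The other cytosolic ribosomal protein genes gave values close to those of the 53. Of 182 further loci, 162 passed the filter on low counts, and 157 in Col-0, 157 in hec1hec2 and 139 in pifQ were lower by FDR alone. Their median log2 fold changes were -0.997, -1.05 and -0.81, and in pifQ without replicate 2 at 22°C 152 were lower with a median of -0.84. The plastid ribosomal protein genes, whose products serve the chloroplast, had smaller medians of -0.52, -0.65 and -0.42, with 29, 31 and 20 of 32 lower by FDR alone, and 24 lower with a median of -0.37 in pifQ without that library. Of 18 translation factor genes, 10, 11 and 10 were lower and 3, 3 and 2 higher, with 10 and 3 in pifQ without it.

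Marker genes of cell types moved as follows between 22°C and 28°C. The summed level of 4 green tissue markers was 39610 to 42330 CPM at 22°C and 27820 to 31200 at 28°C in Col-0, and 2 of the 4 were lower by FDR alone in Col-0, 2 in hec1hec2 and 1 in pifQ, with none higher. Their sum was 40320 to 50890 and 27170 to 28890 CPM in hec1hec2. In pifQ it was 42370 to 58050 (43010 at most without replicate 2) and 33510 to 37030 CPM. The sum was thus lower at 28°C in each genotype, but its genes differed. On the log2 scale RBCS1A changed by -0.86 in Col-0, -1.09 in hec1hec2 and -0.84 in pifQ. RCA was called lower in Col-0 and hec1hec2 only, and CAB1 and CAB2 were not called in any genotype. The sum of 6 markers of dividing cells was 64.2 to 71.9 and 72.8 to 80.9 CPM in Col-0, 61.8 to 75.8 and 100.4 to 110.3 in hec1hec2, and 64.4 to 67.6 and 52.5 to 68.2 in pifQ. Of these 6, 1, 0 and 1 were lower and 1, 2 and 0 higher in Col-0, hec1hec2 and pifQ, with 0 lower in pifQ without replicate 2 at 22°C. Of 4 root markers 3 were tested, with 2 lower and 1 higher in Col-0, 0 and 1 in hec1hec2, and 0 and 1 in pifQ. The summed seed storage markers stood at 0 to 1.33 CPM at 22°C and 4.31 to 24.4 CPM at 28°C over all genotypes, and SESA1 and SESA3 were at 0 in most libraries. The 24.4 CPM was in Col-0 28°C replicate 1, where SESA1 had 27 counts and SESA3 had 18. CRA1, the only seed storage marker tested, had at most 6 counts per library at 22°C. It was called higher at 28°C in each genotype, by 4.62 in Col-0, 4.93 in hec1hec2 and 5.13 in pifQ (5.59 without replicate 2 at 22°C) on the log2 scale. The part of these cell types in the ribosomal protein results was not tested.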

How the data were processed

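Total RNA from whole seedlings was sequenced by 3′ Tag-Seq. The authors deposited whole-number counts of reads per gene, not normalized, in 1 table of 33655 genes and 18 libraries. The submitters' processing notes name FastQC, TopHat, Bowtie2, HTSeq and edgeR and the TAIR10 build; versions and the strand setting of the counting are not given in the sources used here. All columns were mapped to a sample, and 0 were left unused.

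Counts were analysed in R 4.3.3 with edgeR 4.0.16. Genes were filtered with filterByExpr by group, which kept 18078, scaled with TMM factors and fitted in 1 quasi-likelihood model over the 6 groups of 3 libraries. P-values were two-sided and adjusted by the Benjamini-Hochberg method over all tested genes. Genes were called by an FDR of at most 0.05, alone or with a fold change of at least 2. SEs were derived from the fold change and the F statistic. Library totals of 3631558 to 6285632 counts set the precision. The study describes the replicates as independent biological replicates, with 3 a group. The scripts were tested on simulated data. Copies of a protein were also summed and the fit repeated.

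Genes given by library were the 6 with the largest and the 2 with the most positive change in Col-0, those called between genotypes, the copies of the 3 proteins with the widest spread, the gene with the highest mean CPM, and those known from mutants. The members and lists were chosen with earlier results of these data known. The values of 2 further RPL10 and RPP0 copies and of AT5G07090 were added after their values were seen. Alternatives were RLE factors, TMM without ribosomal protein genes, library totals, DESeq2 1.42.0, other filters, fits of only the groups compared, a replicate block and leaving out each library. Promoters and coordinates come from the RefSeq annotation of TAIR10.1 and both strands were searched. Single results for some of the 53 genes are not reported here, and these genes remain in the fits and counts.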

Additional observations from a re-analysis of the deposited data

How the results depend on the processing

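Over 26 alternative settings, the 53 genes had a median log2 fold change that ran from -1.03 to -0.95 in Col-0, from -1.13 to -0.97 in hec1hec2 and from -0.80 to -0.74 in pifQ. The count lower by FDR alone ran from 48 to 51 in Col-0, 48 to 51 in hec1hec2 and 37 to 50 in pifQ. With library totals in place of TMM, which moved the median of all genes in hec1hec2 from 0.05 to 0.17, the 2-fold rule called 19 genes in hec1hec2, 7 protein sums in hec1hec2 and 3 in pifQ. For pifQ against Col-0 at 28°C, where 1 gene was called, RLE factors gave 2, TMM without ribosomal protein genes 2, no filter 2, only the groups compared 5 and DESeq2 5. Without a filter, 1 gene differed in its response in pifQ. In fits of only the groups compared, 1 gene differed between hec1hec2 and Col-0 at 22°C and 2 at 28°C. Shares of all genes called are not given for the settings of this section, apart from the fit without pifQ 22°C replicate 2. The counts of the 53 under the other settings are therefore not set against all genes.

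Leaving out 1 library at a time, the 2-fold rule called 8 to 19 genes and 1 to 7 protein sums in pifQ. The genes called ranged from 0 to 2 for hec1hec2 against Col-0 at 28°C, from 0 to 1 for pifQ at 22°C and from 0 to 12 for pifQ at 28°C. In pifQ, AT5G35530 ran from -0.104, without pifQ 22°C replicate 2, to 0.383. AT5G10360 ran from -0.475 to 0.0235 and turned to 0.00383 without replicate 1 and to 0.0235 without replicate 3 of the same group. Fits of only the groups compared lost the call of AT5G39850 in pifQ (FDR = 0.0735). Same-numbered libraries correlated from -0.0448 to 0.124 in their deviations, so the numbers were not taken as pairs. With the replicate number as a block, 2 genes were called for pifQ against Col-0 at 28°C. For each change of a call or direction above, the cause was not tested.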
